A study of Homo sapiens with 3 samples.

Results

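The genes described here encode the splicing regulators of 4 families: the SR proteins (SRSF), the heterogeneous nuclear ribonucleoproteins (HNRNP), the SF3A and SF3B subunits of the U2 particle, and the U2 auxiliary factor U2AF. They were chosen by name, as every protein-coding gene whose symbol starts with SRSF, HNRNP, SF3A, SF3B or U2AF followed by letters or digits. The rule found 52 of the 58735 genes of the deposited count table: 12 SR genes, 27 hnRNP genes, 9 SF3A or SF3B genes and 4 U2AF genes. No measured value entered this rule, although the members were chosen with earlier results of these data known. The libraries came from HaCaT, an immortalised line of human skin keratinocytes, of wild-type genotype as labelled. Cells in the CB group were given 25 µg/mL of carbon black and cells in the S1650b group 50 µg/mL of the particulate material S1650b, both for 24 h in medium without serum. The control was labelled as exposed to nothing, also for 24 h. Each group holds 1 library, so no difference given here has a replicate check.

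Introns are removed from pre-mRNA by the spliceosome. U2AF recognises the end of an intron, its large subunit on the pyrimidine tract and its small subunit on the AG that follows, and helps to bring in the U2 particle, whose SF3A and SF3B subunits settle on the branch point. SR proteins bind exons through RNA recognition motifs and recruit the machinery through domains rich in arginine and serine. Many hnRNP proteins bind silencer sequences or introns and oppose them, and they also package, export and stabilise transcripts. Several of these genes hold poison exons, whose inclusion sends the transcript to nonsense-mediated decay. In keratinocytes, alternative splicing accompanies differentiation and gives variants of adhesion and barrier genes.

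The libraries held 20946139 gene counts in CB, 20417744 in S1650b and 20658247 in the control. Keratinocyte markers were abundant in each library (12 of 12 detected, summed level 5743 FPKM in CB, 2829 in S1650b and 5640 in the control). FPKM is the authors' level per gene length and sequencing depth. The deposited values follow the length of all annotated exons of a gene together. That length can exceed single transcripts: it is 11112 bases for U2AF1, whose transcript U2AF1-204 has 1675. Levels compared between genes depend on it. Marker lists of fibroblasts, endothelial cells, melanocytes and leukocytes each summed to at most 10.1 FPKM in any library. The lower keratinocyte sum in S1650b was measured beside the changes described here, and its part in them was not tested. In bulk RNA, fewer cells that express a gene and less of its RNA per cell cannot be told apart.

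Of the 52 genes, 46 reached a level of 1 CPM (counts scaled to library depth) in 1 library or more and were kept, among 14619 kept genes of the whole table. These were 11 SR genes, 22 hnRNP genes, all 9 SF3A and SF3B genes and all 4 U2AF genes. The remaining 6 lay under 1 CPM in every library. HNRNPCL1, HNRNPCL2, HNRNPCL3, HNRNPCL4 and the readthrough gene HNRNPUL2-BSCL2 had 0 counts throughout, and SRSF12 had 2 counts in S1650b and 0 in the other libraries. All 52 genes together took 1.43% of the counts in CB, 1.21% in S1650b and 1.28% in the control.

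The kept members were expressed well above most genes. Their median level in the control was 38.4 FPKM, against 5.21 FPKM over the 12196 kept protein-coding genes. HNRNPA1, a repressor that binds exonic silencers, had the highest FPKM of all members, at 297 in CB, 265 in S1650b and 301.4 in the control. HNRNPF, which binds runs of G, came next in CB and the control, with 282.7 in CB, 123 in S1650b and 223 in the control. In S1650b, HNRNPK was second, with 220.5 in CB, 173.7 in S1650b and 201.1 in the control. HNRNPA1 differed less between the 3 libraries than HNRNPF, which was lowest in S1650b. The levels by library are shown for all kept members in the plot of FPKM.

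Among SR genes, SRSF2, the speckle protein SC35, and SRSF7, an export adaptor, led in the control. SRSF2 had 84.7 FPKM in CB, 53.4 in S1650b and 69.5 in the control. SRSF7 had 82.8 FPKM in CB, 53.97 in S1650b and 62.1 in the control. Both were highest in CB and lowest in S1650b. The highest SF3 levels were those of SF3B6, which lies beside the branch point adenosine (181.6 FPKM in CB, 94.2 in S1650b and 139 in the control), and SF3B5, a small SF3B subunit (142 in CB, 82.6 in S1650b and 119 in the control). SF3B1, the large scaffold of SF3B, was the lowest of the SF3 genes in the control, at 10.1 FPKM in both CB and the control, but had 26.8 in S1650b. The U2AF subunits were listed far apart: U2AF2, the large subunit, had 122 FPKM in CB, 51.4 in S1650b and 93.1 in the control, whereas U2AF1, the small subunit, had 4.20 in CB, 0.172 in S1650b and 1.09 in the control. Adding the copy gene U2AF1L5 brings the small subunit to 5.15 FPKM in CB, 1.09 in S1650b and 1.72 in the control, and the sequence shared by the copies is described with their counts.

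**Figure D1:**
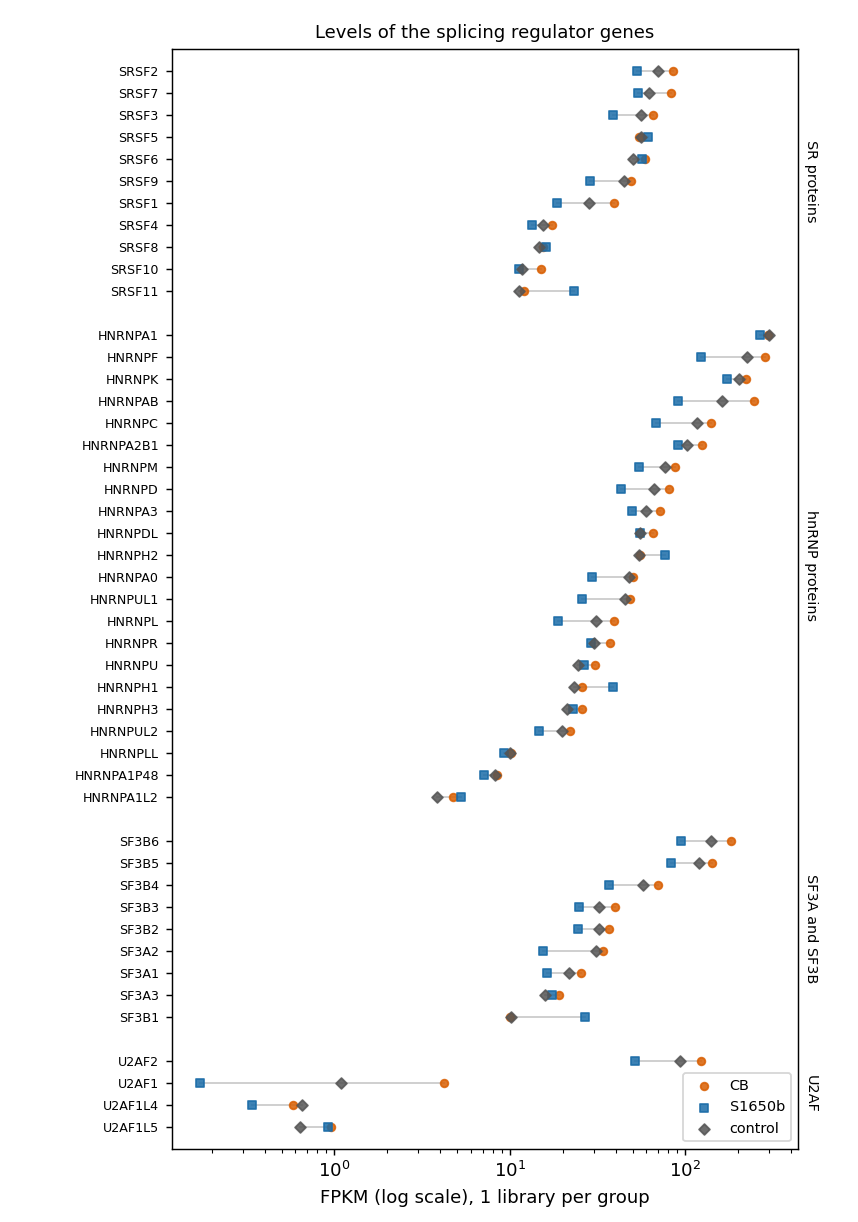
Level of each kept splicing regulator gene in FPKM on a log axis, with 1 library each for CB (circles), S1650b (squares) and the control (diamonds). HNRNPA1 is highest at 301.4 FPKM in the control. The S1650b square lies left of the control diamond for most members and right of it for the rest, SF3B1, SRSF11 and HNRNPH1 among them.

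The first comparison concerns carbon black and these transcripts. A fold is the ratio of CPM after TMM scaling, which corrects for library composition. Its exact 95% conditional binomial interval, given in brackets, covers counting error only, and PCR reads without molecular identifiers are not independent molecules. A gene was called higher for a fold of 1.5 or more with the whole interval above 1, and lower for the mirror image below 1. In CB, 1 of the 46 members was higher and 0 were lower, against 4.86% of all kept genes higher and 10.5% lower. Among the 4465 genes with a mean of at least 1000 counts, a level that 41 members reach, 2.75% were higher and 3.43% lower. U2AF1 was the 1 call, 3.71-fold higher (3.21 to 4.29), with 899 counts in CB against 239 in the control. U2AF1 lies below that mean count, so no member that reaches it passed in CB. Small positive differences were common: 38 of the 46 log2 folds lay above 0, with a median of 0.19 beside 0.01 over all kept genes.

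HNRNPAB, an A/B-type hnRNP, came next to U2AF1, with 10219 counts in CB against 6836 in the control and a fold of 1.47 (1.43 to 1.52). U2AF1L5, a copy of U2AF1 described with its counts, had 204 counts in CB against 140 in the control and a fold of 1.44 (1.15 to 1.79). SRSF1, the founding SR protein, had 2524 counts in CB against 1867 in the control and a fold of 1.33 (1.254 to 1.42). SRSF7 (6451 counts in CB against 4975 in the control, fold 1.28) and U2AF2 (9697 counts in CB against 7592 in the control, fold 1.26) followed. None of these 5 reached the fold of 1.5. At the other end, U2AF1L4, a paralogue of the small subunit, had 32 counts in CB against 37 in the control, with an interval of its fold from 0.514 to 1.41, too wide at this depth to show a difference. SRSF5 had a fold of 0.936 (0.902 to 0.971) and HNRNPA1 of 0.944 (0.929 to 0.959), both small differences below 1. The median log2 fold was 0.17 for SR genes, 0.19 for hnRNP genes, 0.19 for SF3 genes and 0.43 for the 4 U2AF genes. Summed over each family, counts were 1.12-fold higher for SR genes (1.10 to 1.13), 1.11-fold for hnRNP genes (1.10 to 1.12), 1.14-fold for SF3 genes (1.12 to 1.15) and 1.33-fold for U2AF genes (1.30 to 1.37). HNRNPAB also passed the rule with DESeq2 size factors (1.53-fold), with the deposited FPKM (1.54-fold) and with length and GC trends removed (1.51-fold).

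**Figure D2:**
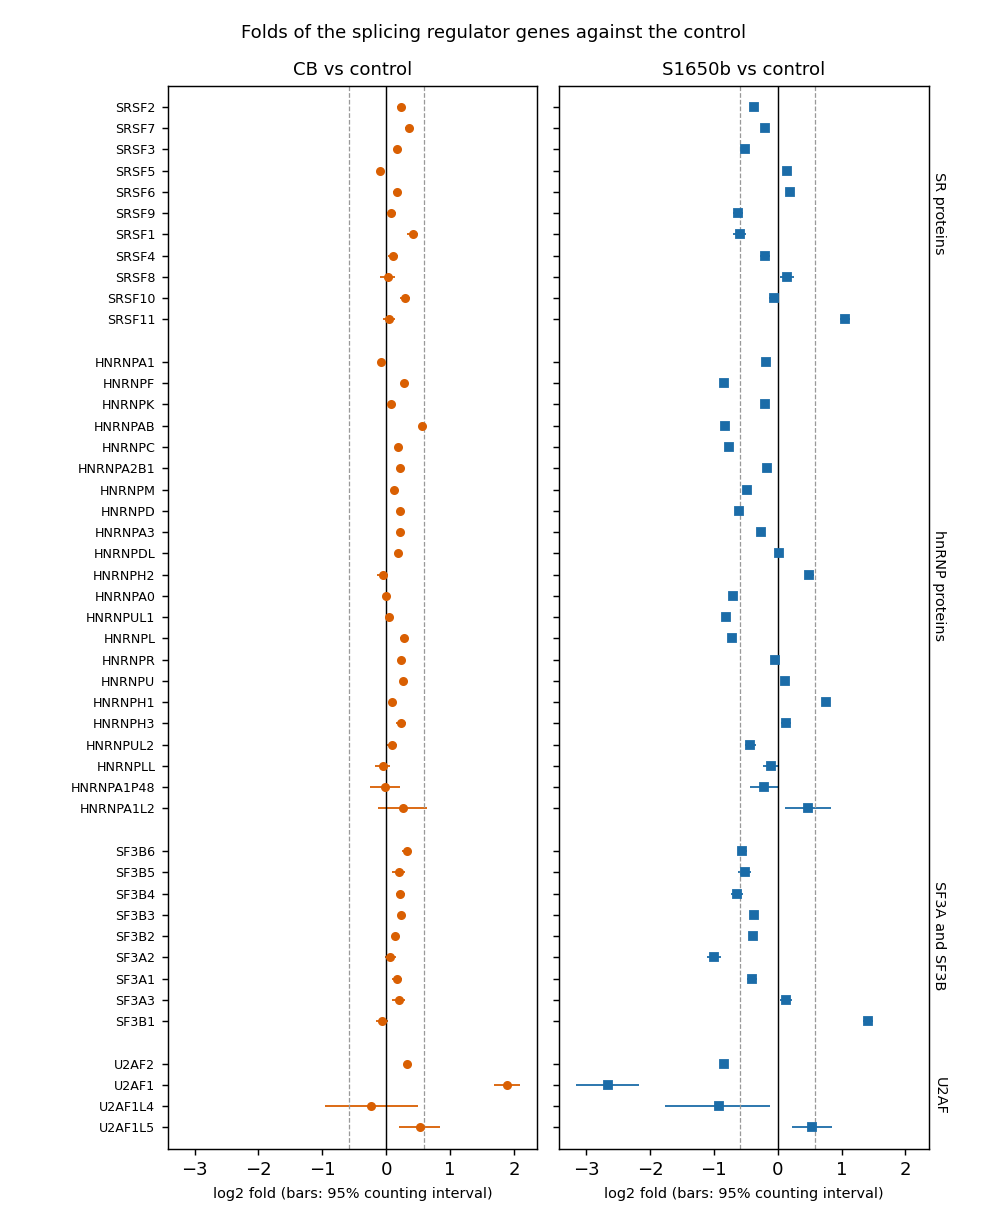
Log2 fold of each kept member for CB against control (left) and S1650b against control (right). Points are folds, bars are 95% counting intervals, and dashed lines mark a fold of 1.5 in either direction. In CB, U2AF1 alone passes a dashed line with its whole interval, and in S1650b, 3 members lie beyond the right line and 14 beyond the left one.

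The second comparison concerns S1650b. The members were split: 3 of 46 were higher than in the control and 14 were lower. These are 6.52% and 30.4% of the members, against 22.1% of all kept genes higher and 19.2% lower. Among the 4465 genes with a mean of at least 1000 counts, 11.7% were higher and 24.3% lower, shares nearer to those of the members. U2AF1 and U2AF1L4, both among the lower members, lie below that mean count. The median log2 fold was −0.31, beside −0.04 for all kept genes, and 33 of the 46 members lay below 0.

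The 3 higher members came from 3 families. SF3B1 (ENSG00000115524, chromosome 2, 197389784 to 197435091, GRCh38), the scaffold that contacts the branch point, had 1776 counts in CB, 5528 in S1650b and 1839 in the control. It was 2.66-fold higher in S1650b (2.52 to 2.81), and CB lay near the control. SRSF11 (ENSG00000116754, chromosome 1, 70205682 to 70253052), an atypical SR protein also called p54, had 1963 counts in CB, 4420 in S1650b and 1880 in the control. Its fold was 2.08 (1.97 to 2.20), again with CB near the control. HNRNPH1 (ENSG00000169045, chromosome 5, 179614178 to 179634784), which binds runs of G as HNRNPF does, had 4695 counts in CB, 8221 in S1650b and 4331 in the control. It was 1.68-fold higher (1.62 to 1.74). Its close relative HNRNPH2 had 3843 counts in S1650b against 2410 in the control and a fold of 1.41 (1.34 to 1.49), short of the rule.

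Lower members were found in each family. Of the 11 SR genes, SRSF9 and SRSF1 were lower. SRSF9, which also acts on splice site choice, had 3535 counts in CB, 2413 in S1650b and 3295 in the control and was 1.54-fold lower (1.46 to 1.63). SRSF1 had 1397 counts in S1650b against 1867 in the control and was 1.51-fold lower (1.41 to 1.62). Exons of other genes overlap 46.2% of the exon bases of SRSF9 and 60.7% of those of SRSF1, and both values are uncertain, since no source used here states whether counting used the strand. The other 8 SR genes passed in neither direction. SRSF3, a small SR protein active in export, came closest, with 6234 counts in S1650b against 7869 in the control and a fold of 0.701 (0.678 to 0.725). SRSF5, SRSF6 and SRSF8 had folds between 1.11 and 1.14, and SRSF2, SRSF4, SRSF7 and SRSF10 between 0.773 and 0.961.

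Among the 22 hnRNP genes, 7 were lower. HNRNPF had 17716 counts in CB, 9031 in S1650b and 14374 in the control and was 1.80-fold lower (1.75 to 1.85). HNRNPAB had 4374 counts in S1650b against 6836 in the control and was 1.77-fold lower (1.699 to 1.83), so it was highest in CB and lowest in S1650b. HNRNPUL1, a relative of the nuclear scaffold protein HNRNPU, had 6119 counts in CB, 3788 in S1650b and 5855 in the control, a 1.75-fold lower value (1.68 to 1.82). HNRNPC, which binds U tracts and keeps Alu sequence out of exons, had 19614 counts in CB, 11258 in S1650b and 16966 in the control and was 1.702-fold lower (1.66 to 1.74). HNRNPL, which binds CA repeats, had 5166 counts in CB, 2895 in S1650b and 4204 in the control and was 1.64-fold lower (1.56 to 1.72). All 5 were lowest in S1650b. HNRNPA0, which binds AU-rich elements, had 8409 counts in CB, 5776 in S1650b and 8293 in the control (1.62-fold lower, 1.57 to 1.68). HNRNPD, also known as AUF1 for its part in the decay of AU-rich transcripts, had 10780 counts in CB, 6766 in S1650b and 9118 in the control (1.52-fold lower, 1.48 to 1.57).

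The other 14 hnRNP genes passed in neither direction. They include HNRNPA1, with 29140 counts in CB, 30424 in S1650b and 30418 in the control (fold 0.886, 0.872 to 0.900), HNRNPK, which binds C-rich sequence, with 20027 counts in S1650b against 20382 in the control (fold 0.870), and HNRNPA2B1, with 18867 counts in S1650b against 18802 in the control (fold 0.888). Their nearly equal counts give folds below 1 because the TMM factor of S1650b was 1.09, against 0.956 for the control. HNRNPU, with 13351 counts in S1650b against 10897 in the control, had a fold of 1.09 (1.06 to 1.11). HNRNPR, HNRNPDL and HNRNPH3 had folds between 0.969 and 1.10, close to the control. HNRNPA3 (0.838), HNRNPLL (0.925), HNRNPUL2 (0.744) and HNRNPM (0.717) had folds below 1, and exons of other genes overlap 44.2% of HNRNPUL2. HNRNPA1L2 and HNRNPA1P48, copies of HNRNPA1 that are annotated as protein-coding, share 58.5% and 51.6% of their 50-base windows with other genes. HNRNPA1L2 had 163 counts in S1650b against 104 in the control (fold 1.39, 1.08 to 1.79), and HNRNPA1P48 had 307 counts in S1650b against 314 in the control (fold 0.866, 0.737 to 1.02). Several hnRNP genes have processed pseudogenes that can share reads. Those of HNRNPA1 held 0.797% of the joint counts in CB, 1.06% in S1650b and 0.928% in the control, and those of HNRNPC 3.70% in CB, 3.18% in S1650b and 3.39% in the control. With pseudogene counts added, the S1650b folds were 0.887 for HNRNPA1 and 0.586 for HNRNPC.

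Within SF3A and SF3B, 2 of 9 members were lower and 1 was higher. SF3A2 (ENSG00000104897, chromosome 19, 2236504 to 2248679), a zinc finger subunit of SF3A, had 2045 counts in CB, 1086 in S1650b and 1926 in the control and was 2.003-fold lower (1.86 to 2.16). SF3B4, which contacts pre-mRNA upstream of the branch point, had 3011 counts in CB, 1846 in S1650b and 2541 in the control and was 1.56-fold lower (1.46 to 1.65). Subunits of the U2 particle therefore lay on both sides of the control in S1650b, with SF3B1 of SF3B at 2.66 and SF3A2 of SF3A at 0.499. With length and GC trends removed, SF3B1 had a fold of 1.52 and SF3A2 of 0.724, and SF3A2 no longer passed. SF3A3 had a fold of 1.09 (1.02 to 1.17), and SF3A1, SF3B2, SF3B3, SF3B5 and SF3B6 had folds between 0.681 and 0.772.

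In S1650b, 3 of the 4 U2AF genes were lower. U2AF2 (ENSG00000063244, chromosome 19, 55654146 to 55674715), the large subunit, had 9697 counts in CB, 4764 in S1650b and 7592 in the control and was 1.80-fold lower (1.74 to 1.87). U2AF1L4 had only 22 counts in S1650b against 37 in the control, and its 1.90-fold lower value has an interval from 1.09 to 3.38. Exons of other genes overlap 30.3% of it. U2AF1 was 6.28-fold lower (4.52 to 8.90), with 43 counts in S1650b against 239 in the control, but this value cannot be read without its copy. Summed over families, counts in S1650b were 0.934 of the control for SR genes (0.922 to 0.947), 0.816 for hnRNP genes (0.810 to 0.821), 0.859 for SF3 genes (0.845 to 0.873) and 0.559 for U2AF genes (0.540 to 0.579).

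The scaling of the libraries set how many members passed in S1650b. With scaling by total counts, 6 members were higher and 6 lower, and HNRNPAB, HNRNPF, HNRNPUL1, SF3A2, U2AF1 and U2AF2 were the lower ones. That scaling moved the median of all kept genes to a log2 fold of 0.15, and the median of the members to −0.12. The median of the SR genes was then 0.00 and that of the hnRNP genes −0.01, in place of −0.19 for the SR genes and −0.20 for the hnRNP genes.

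The reads of the small subunit U2AF1 were divided between 2 genes on chromosome 21. U2AF1 (ENSG00000160201) lies at 43092956 to 43107587 and U2AF1L5 (ENSG00000275895) at 6484623 to 6499261, both on GRCh38, in which the second has been described as an erroneous copy. Of the 50-base windows in the exons of U2AF1, 94.3% occur in another gene too. The coding sequences of U2AF1-201 and U2AF1L5-201, 720 bases each in GENCODE 29, differ at 0 positions. Their first 60 bases are printed to show that a read from the coding part cannot be assigned to either gene.
U2AF1-201: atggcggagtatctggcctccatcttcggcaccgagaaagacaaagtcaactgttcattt
U2AF1L5-201: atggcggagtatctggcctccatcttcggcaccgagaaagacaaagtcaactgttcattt
Other transcripts were compared in 2 pairs of equal length, which differ at single bases. Whether these bases lie in coding sequence was not checked. The exons together span 11112 bases in U2AF1 and 11119 in U2AF1L5, so these pairs need not hold all differences. U2AF1-203 and U2AF1L5-212 (1019 bases each) differ at 1 base, A20C, counted from the first base of the transcript, with U2AF1 given first. U2AF1-204 and U2AF1L5-204 (1675 bases each) differ at 2 bases, C144T and G463C. The stretches around these bases are shown, since a read can tell the copies apart there, and the capital marks the base that differs.
U2AF1-203: ggtgacgtctcccgAgggcgtcggcaggg
U2AF1L5-212: ggtgacgtctcccgCgggcgtcggcaggg
U2AF1-204: tcctaaggtgggttCggtcagtcccctaa
U2AF1L5-204: tcctaaggtgggttTggtcagtcccctaa
U2AF1-204: ctcaccacaccggtGttttcaagagagaa
U2AF1L5-204: ctcaccacaccggtCttttcaagagagaa

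U2AF1 held 899 counts in CB, 43 in S1650b and 239 in the control. U2AF1L5 held 204 counts in CB, 230 in S1650b and 140 in the control, with a fold of 1.44 (1.15 to 1.79) in CB and 1.46 (1.17 to 1.81) in S1650b. In CB both folds lay above 1, but that of U2AF1 (3.21 to 4.29) was larger, with an interval that does not overlap that of U2AF1L5. In S1650b, U2AF1 passed as lower while U2AF1L5 lay above 1, and U2AF1L5 passed the rule in neither comparison. The share of their joint counts assigned to U2AF1 was 81.5% in CB (exact Clopper-Pearson interval 79.1 to 83.8%), 15.8% in S1650b (11.6 to 20.6%) and 63.1% in the control (57.98 to 67.9%). The intervals do not overlap, although the coding sequences are identical. No source used here states how the authors assigned reads that fit both copies, and the part of that step in these shares was not tested.

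The sum over the copies does not depend on how reads were divided between them, but whether reads that fit both were counted at all is not given either. The summed small subunit had 1103 counts in CB, 273 in S1650b and 379 in the control. The sum was 2.87-fold higher in CB than in the control (2.55 to 3.23). In S1650b it was 1.57-fold lower (1.34 to 1.84), in place of 6.28-fold for U2AF1 alone. With scaling by total counts the S1650b sum had a fold of 0.729 and no longer passed the rule. With the length trend removed it had a fold of 0.466, and with the GC trend removed too 0.420.

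**Figure D3:**
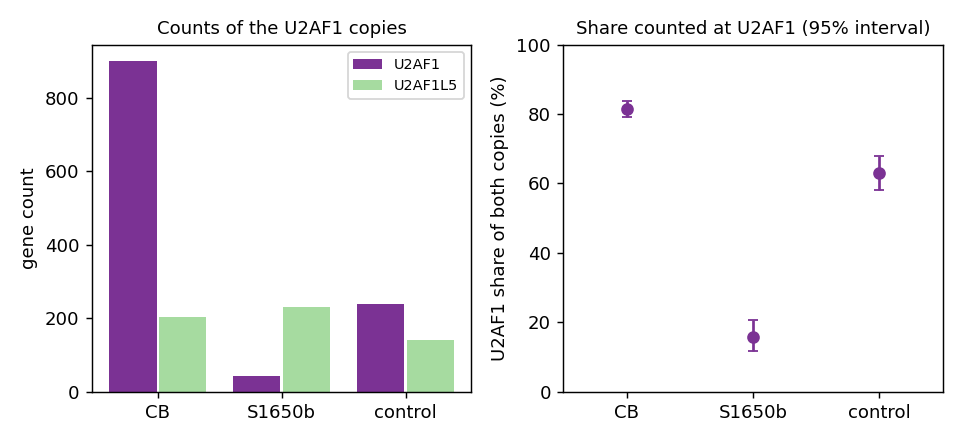
Gene counts of U2AF1 and U2AF1L5 in each library (left) and the share of their joint counts assigned to U2AF1 in percent, with its exact 95% interval (right). In S1650b the U2AF1 bar stands at 43 counts and the U2AF1L5 bar at 230, and the share is 81.5% in CB, 15.8% in S1650b and 63.1% in the control.

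The third comparison sets S1650b at 50 µg/mL against CB at 25 µg/mL, so the doses differ as well as the materials. Of the 46 members, 3 were higher in S1650b than in CB and 19 were lower, against 26.1% of all kept genes higher and 20.8% lower. Among genes with a mean of at least 1000 counts the shares were 12.0% and 29.4%, and U2AF1, among the lower members, lies below that mean count. The median log2 fold of the members was −0.52, beside 0.02 for all kept genes. The higher members were again SF3B1 (5528 counts in S1650b against 1776 in CB, 2.80-fold, 2.65 to 2.95), SRSF11 (4420 in S1650b against 1963 in CB, 2.02-fold, 1.92 to 2.14) and HNRNPH1 (8221 in S1650b against 4695 in CB, 1.57-fold, 1.52 to 1.63). HNRNPH1 did not pass under the upper quartile, the deposited FPKM or removal of the length trend. With length and GC trends removed, only SF3B1 remained higher, with SRSF11 at a fold of 1.26 and HNRNPH1 at 1.095.

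Of the 14 members lower against the control, 13 were also lower against CB, and U2AF1L4 was not. The comparisons share the S1650b library, so this count is no independent check. HNRNPAB stood further from CB than from the control, with 4374 counts in S1650b against 10219 in CB (2.60-fold lower, 2.51 to 2.69). U2AF2 was 2.27-fold lower (2.19 to 2.35), HNRNPF 2.18-fold (2.13 to 2.24), SF3A2 2.10-fold (1.95 to 2.26) and SRSF1 2.01-fold (1.88 to 2.15). For the summed small subunit U2AF1, 273 counts in S1650b against 1103 in CB gave a 4.50-fold lower value (3.94 to 5.15).

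A further 6 members were lower against CB but did not pass against the control. SF3B6 had 2541 counts in S1650b against 4187 in CB (1.83-fold lower, 1.75 to 1.93) and SF3B5 1290 counts in S1650b against 1896 in CB (1.64-fold lower, 1.52 to 1.76). SRSF3 had 6234 counts in S1650b against 8981 in CB (1.60-fold lower, 1.55 to 1.66). SF3B3, a large propeller protein of SF3B, had 6943 counts in S1650b against 9510 in CB (1.52-fold lower, 1.48 to 1.57). HNRNPM, which binds GU-rich sequence, had 6921 counts in S1650b against 9447 in CB (1.52-fold lower, 1.47 to 1.57). SRSF2 had 3629 counts in S1650b against 4924 in CB (1.51-fold lower, 1.45 to 1.58), and exons of other genes overlap 36.7% of it. All 6 had folds above 1 in CB and below 1 in S1650b, each against the control.

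GC content moved with the S1650b folds. The exon sequence of the members had a median GC content of 45.05%, beside 49.3% for the kept protein-coding genes. Across the 46 members, Spearman's rho between GC content and the log2 fold was −0.61 in S1650b (−0.64 without U2AF1 and U2AF1L5) and 0.09 in CB. Across the kept protein-coding genes it was −0.49 in S1650b and −0.11 in CB. These correlations are across genes that share the same libraries, and genes are not independent replicates. SF3B1 (39.7%) and SRSF11 (41.0%) are among the members of low GC content, and SF3A2 (63.6%) and U2AF2 (61.3%) have the highest. In the 23 members of lower GC content, 2 were higher in S1650b and 3 lower, with a median log2 fold of −0.06. In the 23 members of higher GC content, 1 was higher and 11 were lower, with a median of −0.52. The S1650b fold fell with GC content over the kept protein-coding genes too, and no share of calls at like GC content is given. The split is therefore not shown to be particular to the members.

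**Figure D4:**
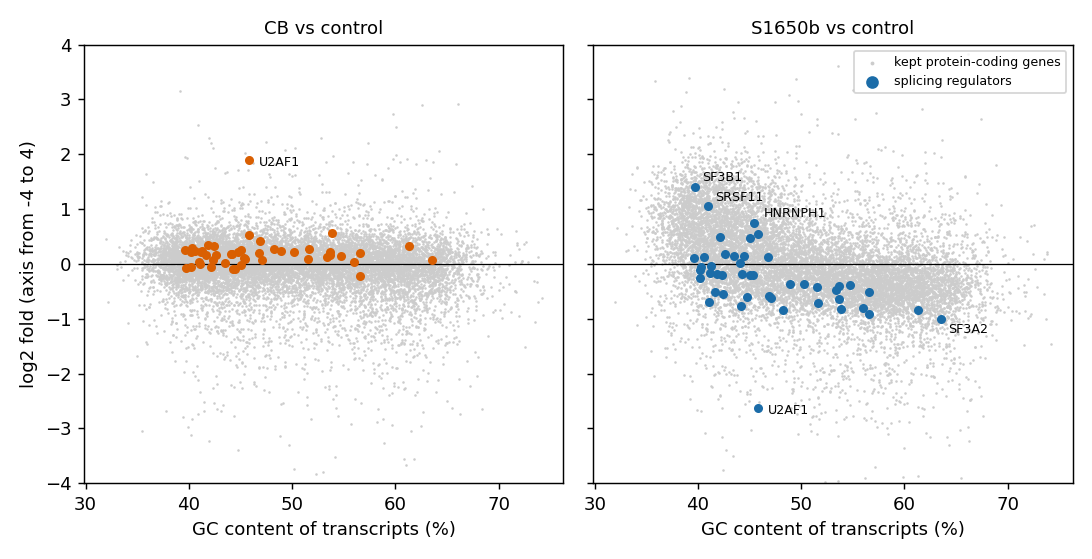
Log2 fold against the GC content of the exon sequence (percent) for CB against control (left) and S1650b against control (right). Grey points are kept protein-coding genes and coloured points are the splicing regulators, and in S1650b both slope downward, from SF3B1 at low GC content to SF3A2 at high GC content, with U2AF1 below the trend.

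When the trends of the fold with exon length and GC content over all kept genes were removed, the S1650b calls changed. SF3B1 remained higher at 1.52-fold, while SRSF11 had a fold of 1.27 and HNRNPH1 of 1.15, below the rule. The lower members then numbered 17, of which 7 were shared with the original 14: HNRNPA0, HNRNPC, HNRNPD, HNRNPF, HNRNPL, HNRNPUL1 and U2AF1. The share of all kept genes that passed after removal is not given, so these counts are not shown to be particular to the members. The 10 that entered were HNRNPA2B1, HNRNPA3, HNRNPLL, HNRNPR, HNRNPU, SF3B3, SF3B6, SRSF3, SRSF4 and SRSF10. HNRNPU turned direction, with a fold of 0.4999 after removal and 1.09 before. The length used was that of all annotated exons together, which for HNRNPU is 22512 bases of a gene span of 23923. Removal of the length trend alone took its log2 fold from 0.12 to −0.54. The part of that length measure in the turn was not tested. SRSF10 (0.532 after removal, 0.961 before) and HNRNPR (0.594 after removal, 0.969 before) had been close to the control. SF3A2, U2AF2, HNRNPAB, SF3B4, SRSF1, SRSF9 and U2AF1L4 left the list, with log2 folds between −0.58 and −0.14. The median of the members was −0.44 after removal, beside −0.02 for all kept genes. In the 23 members of lower GC content the median was then −0.55, and in the 23 of higher GC content −0.37, so the order of these groups turned. Whether the trends come from the cells or the libraries was not tested.

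Promoter sequence is shown for the 3 members with the highest and the 3 with the lowest S1650b folds among those that passed, had at least 100 counts in the control and had an entry in the RefSeq promoter table (GRCh38.p14). U2AF1 was placed by its own fold. By the sum with its copy, a fold of 0.638, it would lie behind HNRNPF (0.556) and HNRNPAB (0.567). Each window runs from 250 bases before the start to 50 after it. It is written 5′ to 3′ on the strand of the gene. Capitals mark matches on either strand to the GC box (GGGCGG), the ETS core (CCGGAAG), the NRF1 core (GCATGCG), the CRE core (TGACG), the core of the xenobiotic response element (GCGTG), the CCAAT box and the TATA box (TATAAA). Matches can overlap.
SF3B1, chr2:197435044-197435343, minus strand: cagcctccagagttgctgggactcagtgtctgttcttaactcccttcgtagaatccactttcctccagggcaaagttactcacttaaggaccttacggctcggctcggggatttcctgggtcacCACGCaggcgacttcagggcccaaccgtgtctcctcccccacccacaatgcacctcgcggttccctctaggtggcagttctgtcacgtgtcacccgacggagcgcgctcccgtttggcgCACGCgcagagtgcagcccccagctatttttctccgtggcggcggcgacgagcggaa
SRSF11, chr1:70205446-70205745, plus strand: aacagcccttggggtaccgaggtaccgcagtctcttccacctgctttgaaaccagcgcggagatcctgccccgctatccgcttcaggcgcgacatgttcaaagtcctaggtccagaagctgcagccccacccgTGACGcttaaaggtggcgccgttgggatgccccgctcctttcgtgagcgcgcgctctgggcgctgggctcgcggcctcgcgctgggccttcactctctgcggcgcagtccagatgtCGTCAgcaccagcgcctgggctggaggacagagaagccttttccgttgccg
HNRNPH1, chr5:179623622-179623921, minus strand: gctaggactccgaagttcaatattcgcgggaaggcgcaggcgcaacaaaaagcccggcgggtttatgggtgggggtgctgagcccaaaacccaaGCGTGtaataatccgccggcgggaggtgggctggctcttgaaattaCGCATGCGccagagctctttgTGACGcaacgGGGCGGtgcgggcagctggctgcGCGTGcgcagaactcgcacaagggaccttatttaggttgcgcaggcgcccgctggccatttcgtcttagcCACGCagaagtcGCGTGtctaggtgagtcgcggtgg
U2AF1, chr21:43107521-43107820, minus strand: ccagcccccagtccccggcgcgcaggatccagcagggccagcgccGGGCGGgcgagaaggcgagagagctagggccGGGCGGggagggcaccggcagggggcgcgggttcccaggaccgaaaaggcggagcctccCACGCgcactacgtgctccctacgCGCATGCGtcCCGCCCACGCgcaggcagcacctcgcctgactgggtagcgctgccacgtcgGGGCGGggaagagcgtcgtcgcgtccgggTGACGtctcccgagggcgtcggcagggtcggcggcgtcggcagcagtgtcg
SF3A2, chr19:2236574-2236873, plus strand: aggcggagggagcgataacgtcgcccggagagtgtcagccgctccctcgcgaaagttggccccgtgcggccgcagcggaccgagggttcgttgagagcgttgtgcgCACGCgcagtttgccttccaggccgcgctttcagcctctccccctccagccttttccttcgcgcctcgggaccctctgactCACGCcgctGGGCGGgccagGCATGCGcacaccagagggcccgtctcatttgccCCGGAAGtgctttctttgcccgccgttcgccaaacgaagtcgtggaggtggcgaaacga
U2AF2, chr19:55654785-55655084, plus strand: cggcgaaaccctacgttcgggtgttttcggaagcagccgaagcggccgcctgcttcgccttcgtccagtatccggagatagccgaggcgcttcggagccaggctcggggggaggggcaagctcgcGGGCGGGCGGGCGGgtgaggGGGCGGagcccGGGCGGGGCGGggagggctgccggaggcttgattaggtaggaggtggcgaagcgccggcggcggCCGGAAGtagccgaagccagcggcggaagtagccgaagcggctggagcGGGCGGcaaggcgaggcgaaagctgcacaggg
The GC box was found in HNRNPH1 (1 match) and in the 3 lower genes: 4 matches in U2AF1, 1 in SF3A2 and 7 in U2AF2. It was in neither SF3B1 nor SRSF11. The xenobiotic element core was found in SF3B1, HNRNPH1, U2AF1 and SF3A2, and in neither SRSF11 nor U2AF2. No TATA box and no CCAAT box lay in these 6 windows. The 46 of 52 members with an entry gave 1 window each. It was the window with the most annotated starts of protein-coding transcripts within 50 bases of its own start site. The comparison took all 35116 promoters in the table without that choice, so the shares are not like for like. These 46 include HNRNPCL1, HNRNPCL2, HNRNPCL4, SRSF12 and HNRNPUL2-BSCL2, all under 1 CPM, and lack the kept genes HNRNPA1, HNRNPA1P48, SF3B3, SRSF2 and U2AF1L5. A GC box was held by 63.0% of them, against 44.95% of all promoters. The xenobiotic element core was in 63.0% against 36.5%, and the CRE core in 45.7% against 24.6%. The ETS core was in 26.1% of member promoters against 10.3% of all, and the NRF1 core in 10.9% against 3.91%. The CCAAT box was in 43.5% against 34.6%, and the TATA box in 8.70% against 11.5%. Member promoters had a median GC content of 64.2% against 58.7% for all, and the part of GC content in these shares was not tested. A match describes letters, not binding.

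Annotated transcripts that end in nonsense-mediated decay were common among the members. At least 1 such transcript is annotated in GENCODE 29 for 31 of the 46 kept members (67.4%), and for 43.3% of the kept protein-coding genes. The families differed: all 11 kept SR genes and all 4 U2AF genes have one, 13 of 22 hnRNP genes and only 3 of 9 SF3 genes (33.3%). The members have a median of 10.5 annotated transcripts, against 8 for the kept protein-coding genes, and its part in these shares was not tested. SRSF7 has 6 of them among 12 transcripts and SRSF1 has 3 among 9. Transcripts with a retained intron are annotated for 32 members (69.6%), against 58.2% of the kept protein-coding genes. Gene counts sum over such transcripts, so productive and unproductive forms cannot be told apart in these files.

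The rest of the splicing machinery was counted by the same rule in 6 lists. In CB few genes passed, against 4.86% of all kept genes higher and 10.5% lower. Of 9 kinases of SR proteins, 2 were lower in CB: DYRK1B (203 counts in CB against 395 in the control, 1.98-fold lower, 1.66 to 2.35) and CLK4, which phosphorylates the arginine and serine domains (169 counts in CB against 295 in the control, 1.77-fold lower, 1.46 to 2.15). Of 38 other splicing regulators, MATR3, a nuclear matrix protein, was lower, with 36 counts in CB against 61 in the control, and exons of other genes overlap 42.5% of this entry. MATR3 has 2 entries in the table that overlap, and the other one held 0 counts in CB and 4 in the control, so its value is uncertain. No gene of the other 4 lists passed in CB. The core proteins of U1 and U2 had a median log2 fold of 0.30 in CB over 16 kept genes, the tri-snRNP list 0.14 over 37, the SR-related list 0.09 over 28, the decay and exon junction list 0.12 over 15, the other regulators 0.17 and the kinases −0.11.

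In S1650b the core proteins of U1, U2 and the Sm ring were lower in 11 of 16 genes and higher in 1, with a median log2 fold of −0.80 against the control. Over all kept genes, 22.1% were higher and 19.2% lower by the same rule. SNRPA, a protein of the U1 particle, had 913 counts in S1650b against 1977 in the control (2.45-fold lower, 2.26 to 2.65), and the Sm proteins SNRPG and SNRPB were 2.15-fold and 2.01-fold lower. Their higher member was DDX46, a helicase of the U2 particle (1745 counts in S1650b against 705 in the control, 2.19-fold higher, 2.01 to 2.40). The kinases lay the other way, with 5 of 9 higher, 0 lower and a median of 0.70. PRPF4B was 2.36-fold higher (2.16 to 2.58), DYRK1A 1.73-fold, CLK1 1.72-fold and SRPK2 1.702-fold. With length and GC trends removed, 0 of the 9 kinases passed in either direction: PRPF4B had a fold of 1.41, SRPK2 of 1.34 and CLK1 of 1.19, and CLK4 (0.945) and DYRK1A (0.890) lay below 1. Other SR-related proteins were higher in 13 of 28 genes and lower in 1, among them PNN, a speckle protein (2.57-fold, 2.39 to 2.77), and LUC7L3, a relative of a yeast U1 protein (2.55-fold, 2.41 to 2.71). With the length and GC trends removed the median of the SR-related list was −0.04 in place of 0.32, that of the kinases 0.25 and that of the core proteins −0.51. The SR-related list then had 3 higher, PNN and LUC7L3 among them, and 3 lower. The core list had 0 higher and 7 lower, and neither DDX46 nor SNRPB passed. No share of all kept genes with these trends removed is given, so the counts after removal have no background.

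The tri-snRNP and catalytic list was mixed in S1650b, with 7 higher (18.9%) and 9 lower (24.3%) of 37 and a median log2 fold of −0.21. Over all kept genes, 22.1% were higher and 19.2% lower, near the shares of this list. Also near them were the other regulators (18.4% each way) and the decay and exon junction list (20% each way). LSM3 and LSM5, of the ring on U6, were 2.63-fold and 2.54-fold lower, and AQR, an intron-binding helicase, was 2.42-fold higher. Of 38 other regulators, 7 were higher, led by MBNL2, which steers alternative exons (1549 counts in S1650b against 454 in the control, 3.02-fold, 2.72 to 3.36), and 7 were lower, among them KHSRP (1.83-fold). The decay and exon junction list had 3 higher and 3 lower of 15. SMG1, the kinase of UPF1, was 2.60-fold higher (2.42 to 2.79), UPF2 2.29-fold and UPF3B 1.72-fold, whereas the exon junction proteins MAGOH (1.72-fold), EIF4A3 and MAGOHB were lower. With length and GC trends removed, the tri-snRNP list had 4 higher and 7 lower, and AQR, with a fold of 1.23, no longer passed. The other regulators then had 1 higher, MBNL2, and 11 lower, and KHSRP, with a fold of 0.703, no longer passed. The decay and exon junction list had 2 higher, UPF2 and UPF3B, and 3 lower, and SMG1, with a fold of 1.28, no longer passed. For these lists too, the counts after removal have no share of all kept genes beside them. With scaling by total counts, the median of the other regulators turned to 0.04, against −0.16 under TMM. Against CB, where 26.1% of all kept genes were higher and 20.8% lower, 13 of the 16 core genes were lower in S1650b and 1 was higher, 6 of the 9 kinases were higher and 0 lower, and 14 of the 28 SR-related genes were higher and 3 lower. The tri-snRNP list had 7 higher and 13 lower against CB, the other regulators 8 higher and 11 lower, and the decay list 3 higher and 3 lower. With length and GC trends removed, only CLK1, CLK4 and DYRK1B of the kinases remained higher than in CB. In the SR-related list PNN, LUC7L3 and RSRP1 were then higher, and TRA2B, SRRM1, RNPS1 and CHERP lower. The median of that list against CB was −0.08 in place of 0.40. For the kinases it was 0.39 in place of 0.84, and for the core proteins −0.96 in place of −1.15.

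**Figure D5:**
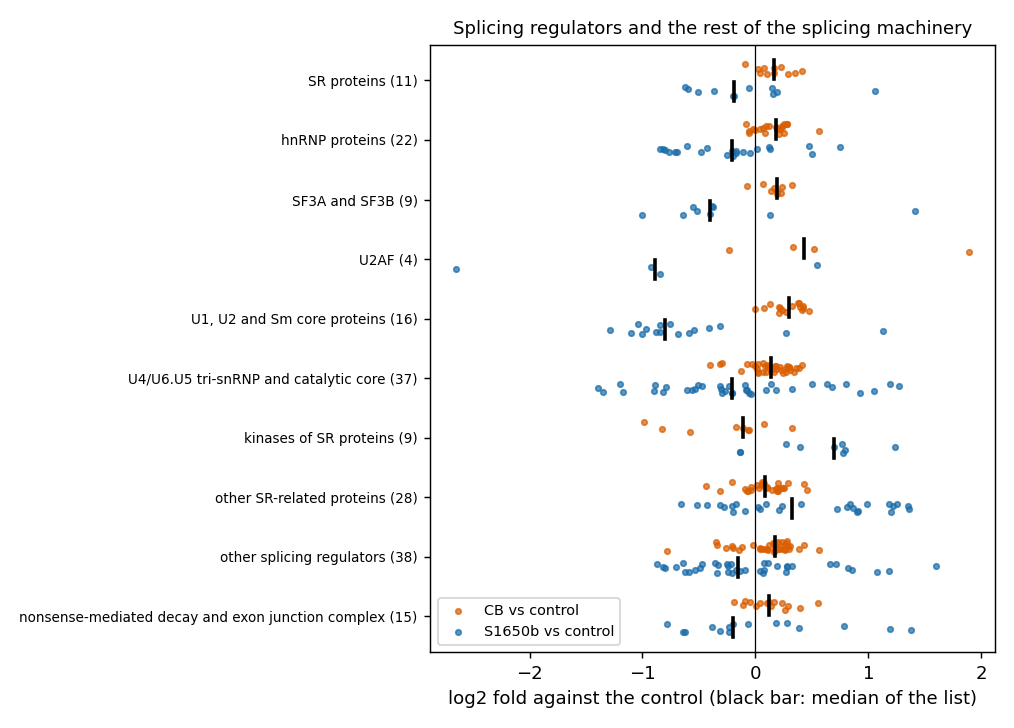
Log2 fold against the control for the kept genes of each family and list, with the number of genes in brackets, for CB (upper row of each pair) and S1650b (lower row). Black bars are medians, which lie at −0.80 for the U1, U2 and Sm core proteins and at 0.70 for the kinases in S1650b.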

How the data were processed

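RNA-seq of HaCaT cells was compared in 3 groups of 1 library each (CB, S1650b and control). Per the labels' protocols, Trizol was used for total RNA and a NEBNext Ultra kit for the libraries. The deposited count table holds whole-number counts per Ensembl gene, and the deposited FPKM table holds FPKM by the authors. Counts divided by FPKM imply library sizes of 0.972 (CB) and 1.14 (S1650b) relative to the control. Per the submitters' processing notes, CASAVA 1.7 and the mouse builds mm8 and mm9 were named, although the gene identifiers are human. Aligner, counter, build and use of strand were not given in the sources used here.

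The members were found by symbol among protein-coding genes of GENCODE 29 (GRCh38), which also gave positions, exon bases, GC content and transcript types. The members and the pathway lists were chosen with earlier results of these data known. A gene was kept when 1 library or more had 1 CPM. TMM factors came from edgeR 4.0.16 in R 4.3.3. Folds, exact 95% conditional binomial (Clopper-Pearson) intervals and the share of kept genes passing the same rule were computed in Python 3.11.15 with numpy 2.4.6, pandas 2.3.3 and scipy 1.17.1, and 0.5 counts were added before log2. No test across libraries was possible and no p is given. Full values were given for members that passed in any comparison and for the 2 members of highest control FPKM in each family, and up to 4 genes per list were named by the interval end nearest to 1. HNRNPAB, U2AF1L5, SRSF1, SRSF7 and U2AF2 in CB, HNRNPK, the members that entered once trends were removed and the range ends of each family are given beyond that rule, as are CLK4 in S1650b, EIF4A3 and MAGOHB. So are the list genes named against CB once trends were removed. The background over genes with a mean of at least 1000 counts and the choice of the 6 promoters were made after seeing the data. The fold and interval steps were tested on simulated data.

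Alternatives were scaling by total counts, by DESeq2 1.42.0 size factors or by the upper quartile, 5 counts added, folds from deposited FPKM (0.1 added), no filter beyond 1 count, at least 5 CPM, thresholds of 0.32 or 1 on the log2 fold, and removal of trends with length or with length and GC content (lowess in statsmodels 0.14.6, span 30%). GC content was known for 14613 of the 14619 kept genes.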

Additional observations from a re-analysis of the deposited data

How the results depend on the processing

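HNRNPU in S1650b against control turned from a fold of 1.09, which passed in neither direction, to 0.4999, which passed as lower, with length and GC trends removed. No other member turned direction with a passing fold on either side under the alternatives run. No paired analysis was possible because each group holds 1 library, and for the same reason no library could be left out. Of the values for single members, 1320 kept their direction and side of the threshold, 48 turned direction without passing it either way, 76 newly passed it and 70 no longer did. In CB against control, the members higher numbered 2 under DESeq2 size factors, the deposited FPKM and length with GC trends removed, and 6 at a log2 threshold of 0.32, in place of 1, and the median log2 fold was 0.25 in FPKM.

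In S1650b against control, scaling by total counts gave 6 members higher and 6 lower, a median of −0.12 and a U2AF1 sum with a fold of 0.729. It moved the median of all kept genes to 0.15, and the median of the SR genes to 0.00 and that of the other splicing regulators to 0.04. The upper quartile gave a median of −0.44 and moved all kept genes to −0.17. A log2 threshold of 0.32 gave 6 higher and 23 lower, and a fold of 2 gave 2 lower, with the U2AF1 sum at 0.638 no longer passing. The median was −0.39 with the length trend removed and −0.44 with the GC trend removed too, when 1 member was higher.

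In S1650b against CB, scaling by total counts gave 12 lower members and a median of −0.33, and all kept genes moved to 0.21. The median was −0.58 under DESeq2 size factors, −0.62 under the upper quartile, −0.59 in FPKM, −0.61 with the length trend removed and −0.60 with the GC trend removed too, when 1 member was higher. A fold of 2 gave 6 lower members. Except where the rule itself changed, the cause was not tested. Depth limits U2AF1L4, at 37 counts or fewer in each library.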
